A study of Drosophila melanogaster with 10 samples.

Results

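The data describe 10 genes with some of the deepest drops in signal from G1 to G2/M, namely CanB, Obp49a, CG8620, pdm3, Ugt37D1, Rcd2, fng, CG31272, Srg2 and CG15347. They were picked because their signal was much lower in G2/M than in G1 on these same arrays. They are 10 of 11982 named genes and were read by 11 of 18769 probe sets, since pdm3 has 2. Each of the 11 is annotated to that gene alone. A probe set is a group of short array probes whose brightness is summarised as 1 log2 signal, so a difference of 1 unit is a doubling.

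The arrays held RNA from Drosophila melanogaster S2 cells, a line of embryonic origin with traits of haemocytes, the fly's blood cells. Stable lines had been induced with CuSO4 to knock down SLIMP, a mitochondrial protein of insects related to seryl-tRNA synthetase, and live cells stained with a DNA dye had been sorted by phase. There were 3 control libraries for G1 and 3 for G2/M, and 2 SLIMP knockdown libraries for each phase. Control cells carried the genotype label WT, and the labels do not say separately whether they received copper. Each library came from 25000 sorted cells and 15 cycles of amplification. The G1 and G2/M libraries of 1 label and 1 number are called a culture below, which gives 5 cultures: control 1, 2 and 3, and knockdown 2 and 3. Whether these were grown apart is not in the labels, so a p-value here reflects the spread among these samples, which may be technical.

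Slimp, the gene targeted by the knockdown, followed the genotype labels in some cultures and not in others. It read 12.55 (log2) in G1 in the library labelled control 3 and 12.59 in the one labelled knockdown 2, and between 8.68 and 8.95 in the other 3 G1 libraries. In G2/M the libraries labelled control 3 and knockdown 2 read 12.51 and 12.53, and the others 8.90 to 9.06. The stretch of transcript it reads is not known here, so its level does not settle which cells carried a knockdown. No direction is therefore drawn from the genotype labels, and results are given by culture, with and without those 2 cultures where they rest on them. The sort itself showed in mitotic genes: all 6 that were measured of a list of 10 rose in G2/M, among them the kinesin gene ncd and the cyclin gene CycB3, at 2.03 and 1.29 on the log2 scale (adjusted p = 0.00357 and 0.00408, limma). Of 6 measured genes of G1/S and DNA replication 0 passed, 2 with an unadjusted p under 0.05; these were RnrL (-0.32, adjusted p = 0.154) and Mcm5 (0.62, adjusted p = 0.214). Culture as a replicate block changed this: Mcm5, a subunit of the replicative helicase, rose (adjusted p = 0.0131), and RnrL, the large subunit of ribonucleotide reductase, fell (adjusted p = 0.0314), as did PCNA, the sliding clamp of replication (-0.28, adjusted p = 0.0306). All 11 haemocyte markers read above the array median in every library. So did all 5 neuron markers measured, so this position does not set these cell types apart.

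The genes differ in what they are known for. CanB encodes the regulatory, calcium-binding subunit of calcineurin, the phosphatase that calcium and calmodulin activate. The protein of fng is a glycosyltransferase that extends O-linked fucose on Notch and so changes how Notch responds to its ligands. A POU-domain transcription factor studied in olfactory neurons is made from pdm3, and Obp49a is a secreted odorant-binding protein studied in taste organs. Ugt37D1 belongs to the UDP-glycosyltransferases, enzymes that attach sugars to small lipophilic molecules, and Rcd2 takes its name, reduction in Cnn dots, from centrosome screening in fly cells. CG8620, CG31272 and CG15347 carry systematic names only, and no role is given here for them or for Srg2. By RefSeq, Srg2, CG8620, Rcd2 and fng lie on chromosome arm 3L, CanB and CG15347 on X, Obp49a and pdm3 on 2R, Ugt37D1 on 2L and CG31272 on 3R.

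All 11 probe sets were lower in G2/M in each of the 5 cultures, as were 13.6% of all probe sets, and for all 11 the highest G2/M library lay below the lowest G1 library. Among all probe sets, 3.35% had that separation in that direction. The mean difference over the cultures ran from 0.79 to 1.60 log2 units lower in G2/M, or 1.73-fold to 3.03-fold. These differences chose the genes, so they are a description and nothing is read from how many pass a test. In limma's comparison of phases averaged over both labels, 10 of 11 had an adjusted p under 0.05, beside 1.58% of all probe sets called lower; CG15347 did not (0.0655). With culture as a replicate block all 11 did, beside 7.41% of all. In control alone the count was 7, beside 0.272%, and 11 with the block, beside 4.43%. In knockdown alone limma called 0 of 11, all with an unadjusted p under 0.05, beside 0% of all probe sets and 9.19% with an unadjusted p under 0.05; with the block it called 11, beside 0.89%. RMA sets every array to 1 distribution, so each value is a level relative to the other transcripts of its library, and fewer cells with the transcript cannot be told apart from less transcript per cell.

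**Figure D1:**
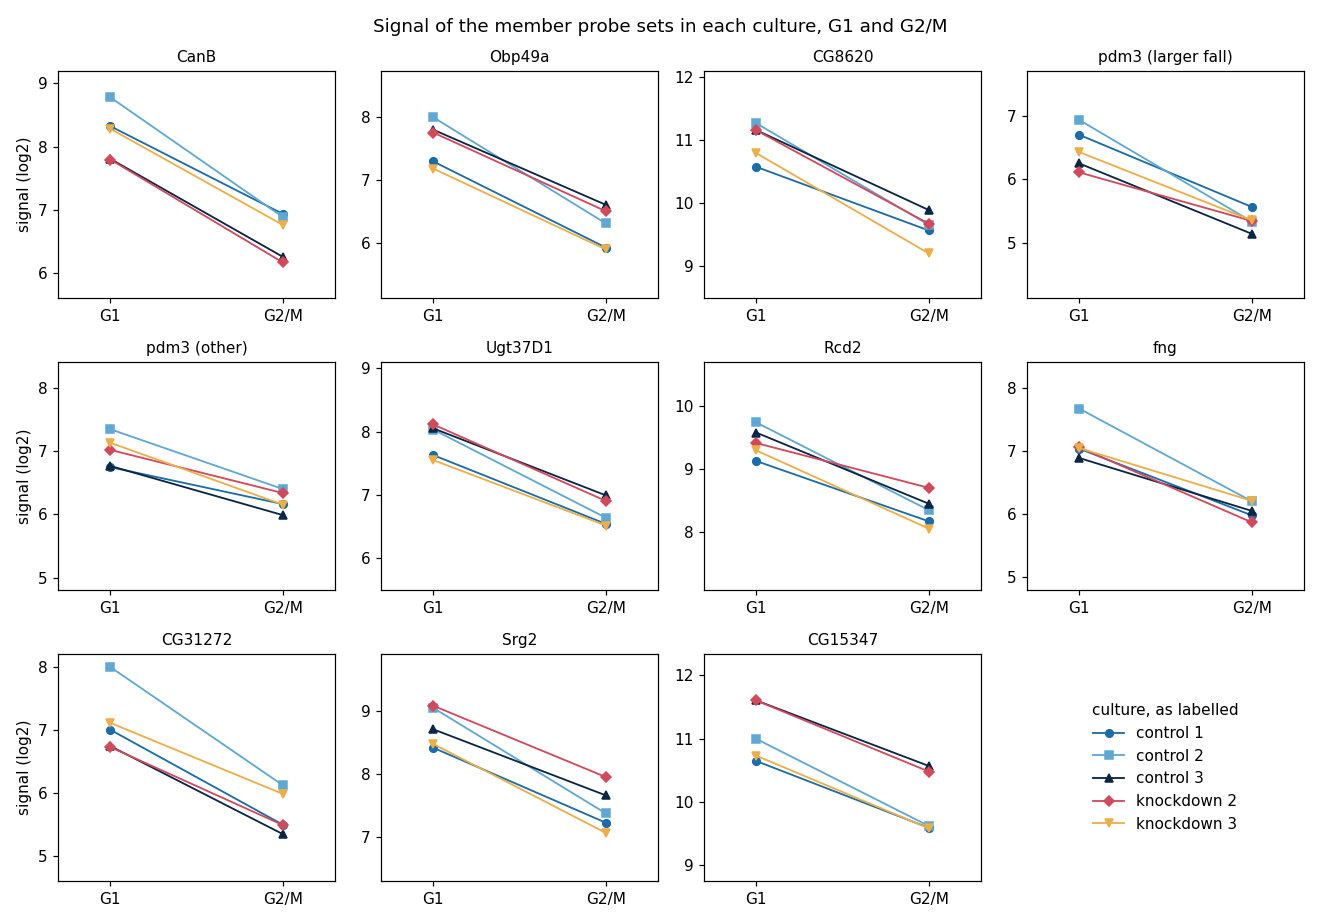
Signal (log2, vertical axis) of each of the 11 probe sets in G1 and in G2/M, with 1 line per culture as labelled; every panel spans the same number of log2 units. All lines run downwards, and in each panel the G1 points lie above the G2/M points.

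CanB, the calcineurin subunit gene, had the deepest mean fall of all named genes. In G1 it read 8.33, 8.78 and 7.81 in control 1, 2 and 3 and 7.80 and 8.28 in knockdown 2 and 3. In G2/M it read 6.94, 6.89 and 6.26 in the control libraries and 6.17 and 6.76 in the knockdown libraries. The mean difference was 1.60 ± 0.19 log2 units (SD, n = 5 cultures), or 3.03-fold, and it was between 1.39 and 1.90 in every culture. The gap between the lowest G1 and the highest G2/M library was 0.86, the widest of the 11 probe sets. In both phases the libraries labelled control 3 and knockdown 2 were the lowest.

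None of the other calcineurin genes passed. Of 6 measured genes of a list of calcineurin and NFAT genes, 0 passed in limma in either direction, 1 with an unadjusted p under 0.05, and their median difference was -0.08, against -0.0001 over all probe sets. The smallest p belonged to sra, which encodes a calcineurin regulator of the calcipressin family (-0.39 ± 0.13 SE, adjusted p = 0.141), and to the catalytic subunit gene CanA-14F (0.17, adjusted p = 0.422). Only sra passed, of the 6, with culture as a replicate block (adjusted p = 0.0114).

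For fng, the Notch glycosyltransferase gene, G1 signals were 7.04, 7.67 and 6.89 in control 1, 2 and 3 and 7.06 and 7.05 in knockdown 2 and 3. Its G2/M signals were 5.98, 6.20 and 6.05 in control and 5.87 and 6.21 in knockdown. Control 2 stood above the rest in G1 only, and the G2/M libraries spread less (SD 0.15) than the G1 libraries (SD 0.30). The difference averaged 1.08 ± 0.26 log2 units (SD, n = 5 cultures). Of 15 measured genes of the Notch pathway, 1 rose and 0 fell in limma, and 1 had an unadjusted p under 0.05. The one that rose was O-fut1, which encodes the enzyme that puts the first fucose on Notch, the sugar that the fng product extends (0.45 ± 0.08 SE, adjusted p = 0.0186). Under the culture block the Notch target gene E(spl)mdelta-HLH also passed, at -0.25 (adjusted p = 0.0306).

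The POU-domain gene pdm3 was read by 2 probe sets that differed in the size of the fall. One read 6.70, 6.94 and 6.25 in G1 in control 1, 2 and 3 and 6.11 and 6.43 in knockdown 2 and 3, and its G2/M signals were 5.56, 5.33, 5.14, 5.34 and 5.35 in the same order. It gave a mean difference of 1.14 ± 0.30 log2 units (SD, n = 5 cultures). The other read 6.75 to 7.35 in G1 and 5.99 to 6.40 in G2/M and gave 0.79 ± 0.17. The cultures also ranked differently in the 2: the fall was smallest in knockdown 2 (0.77) for the first and in control 1 (0.59) for the second. None of the 4 other POU-domain genes measured passed in limma (median -0.12), and 1 had an unadjusted p under 0.05. Of the 4, 0 were above the array median in every library, so a fall would be hard to see in them. The smallest p-values were those of acj6 (-0.19, adjusted p = 0.201) and pdm2 (-0.18, adjusted p = 0.689), and with culture as a replicate block 0 of the 4 passed, the smallest adjusted p being 0.0558 for acj6.

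Obp49a, the odorant-binding protein gene, read 7.30, 8.00 and 7.80 in G1 in control 1, 2 and 3 and 7.75 and 7.18 in knockdown 2 and 3. In G2/M it read 5.93, 6.32 and 6.61 in control and 6.51 and 5.90 in knockdown. The mean difference was 1.35 ± 0.19 log2 units (SD, n = 5 cultures), 2.55-fold. In both phases the libraries labelled control 1 and knockdown 3 were the lowest. The 46 other odorant-binding protein genes measured had a median difference of 0.02, and 0 passed in limma, 1 with an unadjusted p under 0.05; the smallest p-values were those of Obp28a (0.13, adjusted p = 0.242) and Obp56d (0.15, adjusted p = 0.277). Only 4 of the 46 were above the array median in every library. Obp18a, named after its values were seen, was the one that passed with culture as a replicate block (-0.82, adjusted p = 0.00502 with the block, 0.447 without).

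Ugt37D1, a UDP-glycosyltransferase gene, read 7.63, 8.03 and 8.05 in G1 in control 1, 2 and 3 and 8.11 and 7.55 in knockdown 2 and 3. G2/M libraries read 6.54, 6.64 and 6.99 in control and 6.90 and 6.51 in knockdown, a mean difference of 1.16 ± 0.15 log2 units (SD, n = 5 cultures). As for Obp49a, control 1 and knockdown 3 were lowest in both phases. The annotation gives its probe set to Ugt37D1 alone, but its identifier ends in s_at, the array maker's mark for probes that can match more than 1 transcript, so related genes may add to the signal. Only 5 of 34 other UDP-glycosyltransferase genes measured were above the array median in every library. Of the 34 (median -0.10), 4 had an unadjusted p under 0.05 in limma. After adjustment 1 fell and 0 rose. That gene was Ugt49B1 (-0.30 ± 0.07 SE, adjusted p = 0.0472). Under the culture block 6 fell and 0 rose, among them Ugt302C1 (-0.77, adjusted p = 0.00761) and Ugt37C2 (-0.77, adjusted p = 0.0368), both named after their values were seen.

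Rcd2, found through its effect on the centrosome, was lower in G2/M, where the centrosome genes that passed the test were higher. It read 9.12, 9.73 and 9.57 in G1 in control 1, 2 and 3 and 9.41 and 9.29 in knockdown 2 and 3, and 8.17, 8.35, 8.45, 8.70 and 8.06 in G2/M in the same order. The mean difference was 1.08 ± 0.26 log2 units lower in G2/M (SD, n = 5 cultures), and it was smallest in knockdown 2, at 0.71. Of 13 measured genes of centrosome assembly and other Rcd genes (median 0.19), 8 had an unadjusted p under 0.05 in limma. After adjustment 2 rose and 0 fell. These were spd-2, which recruits pericentriolar material (1.12 ± 0.16 SE, adjusted p = 0.00902), and the centriole gene Sas-4 (0.46 ± 0.10 SE, adjusted p = 0.0343). Under the culture block 6 rose and 0 fell, Rcd4 among them (0.33, adjusted p = 0.0253).

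Among the genes with no role given here, CG31272 had the deepest difference. It read 7.99 in G1 in control 2 and 6.73 to 7.11 in the other 4 cultures, and in G2/M 5.50, 6.12 and 5.35 in control 1, 2 and 3 and 5.49 and 5.98 in knockdown 2 and 3. The G1 library labelled control 2 stood 0.88 above the next, and the mean difference was 1.43 ± 0.29 log2 units (SD, n = 5 cultures). CG8620 read between 10.58 and 11.27 in G1 and between 9.21 and 9.89 in G2/M. Its difference averaged 1.39 ± 0.25, with the smallest value, 1.01, in control 1. Srg2 read between 8.42 and 9.08 in G1 and between 7.07 and 7.95 in G2/M, a difference of 1.29 ± 0.25 in which control 2 had the largest fall, at 1.67.

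CG15347 had the most even difference between phases, and its level also differed between cultures, which ranged over 0.97 log2 units when both phases were averaged; only CG31272 ranged further, over 1.01. In G1 it read 11.60 in both the library labelled control 3 and that labelled knockdown 2, and 10.65, 11.00 and 10.73 in control 1, control 2 and knockdown 3. In G2/M it read 10.57 and 10.48 in control 3 and knockdown 2, and 9.59, 9.62 and 9.58 in the others. Its difference was 1.15 ± 0.14 log2 units (SD, n = 5 cultures), the smallest SD of the 11 probe sets. The highest G2/M library lay only 0.08 below the lowest G1 library.

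The size of the fall varied with the culture. In control 2 it was the largest of the 5 cultures for 10 of the 11 probe sets; the exception was the pdm3 probe set with the smaller fall. Among all probe sets lower in G2/M in every culture, 37.2% had their largest fall in control 2. The median over the 11 was 1.61 log2 units in control 2 and between 1.09 and 1.18 in the other 4 cultures. The G1 library labelled control 2 was also the highest of all 10 libraries for 8 of the 11, beside 51.4% of the 629 probe sets whose 5 G1 libraries all lay above the 5 G2/M libraries. The falls in these cultures chose the genes, and neither comparison set was matched for the depth of the fall. Both counts are therefore a description only. Phase differences over all probe sets had an SD of 0.305 in control 2, 0.302 in knockdown 3, 0.276 in control 1, 0.253 in control 3 and 0.227 in knockdown 2. The part of that width in the falls of these genes was not tested.

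**Figure D2:**
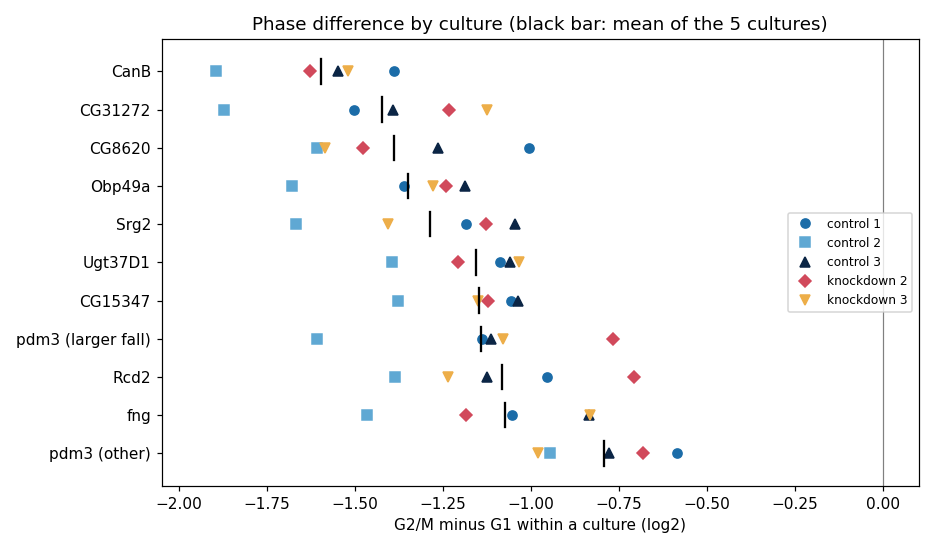
G2/M minus G1 (log2, horizontal axis) within each culture for the 11 probe sets, ordered by the mean of the 5 cultures (black bars). The squares of control 2 lie furthest left in 10 of 11 rows, and no point reaches 0.

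Levels over both phases, which the choice of the genes did not use, differed between cultures. Of the 11 probe sets, 6 passed a limma F test of differences among the 5 cultures with phase as a term, beside 11.5% of all probe sets. That share counts dim probe sets too. Among probe sets above the median signal, which hold 9 of the 11, limma called 2486, a larger share than 11.5%, and the same number of members, 6. In the fit over all probe sets the 6 were CG15347 (adjusted p = 0.000694), CanB (0.00583), Obp49a (0.0134), CG31272 (0.0147), Ugt37D1 (0.0313) and Srg2 (0.0354). Adjusted p was between 0.0744 and 0.204 for the other 5. This test, added after the data were examined, measures cultures against the unevenness of the fall, and genes chosen for a deep fall may be even in it, so the count of 6 carries that limit. Without the cultures labelled control 3 and knockdown 2 limma called 0 of the 11 and 0 of all probe sets, with an unadjusted p under 0.05 for 2626. Without the G1 library labelled knockdown 3 the count was 3.

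The cultures fell into different orders for different genes. Control 1 and knockdown 3 had the lowest levels for 6 of the 11 probe sets, those of Obp49a, CG8620, Ugt37D1, Rcd2, Srg2 and CG15347. For 4 others the lowest cultures were control 3 and knockdown 2, namely CanB, fng, CG31272 and 1 pdm3 probe set. The share of all probe sets with either order was not counted, so these counts are a description only. Over both phases CanB was 0.37 and 0.42 below its own mean in control 3 and knockdown 2, and CG15347 was 0.54 and 0.50 above its own. These are the 2 cultures with the high Slimp signal. Whether Slimp has a part in those levels was not tested. After the phase means were removed, CanB and CG15347 correlated at r = -0.84 over the 10 libraries, Obp49a and Ugt37D1 at 0.94, and fng and CG31272 at 0.91. The median over all 55 pairs was 0.25. These r describe libraries that share 5 cultures and carry no p.

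**Figure D3:**
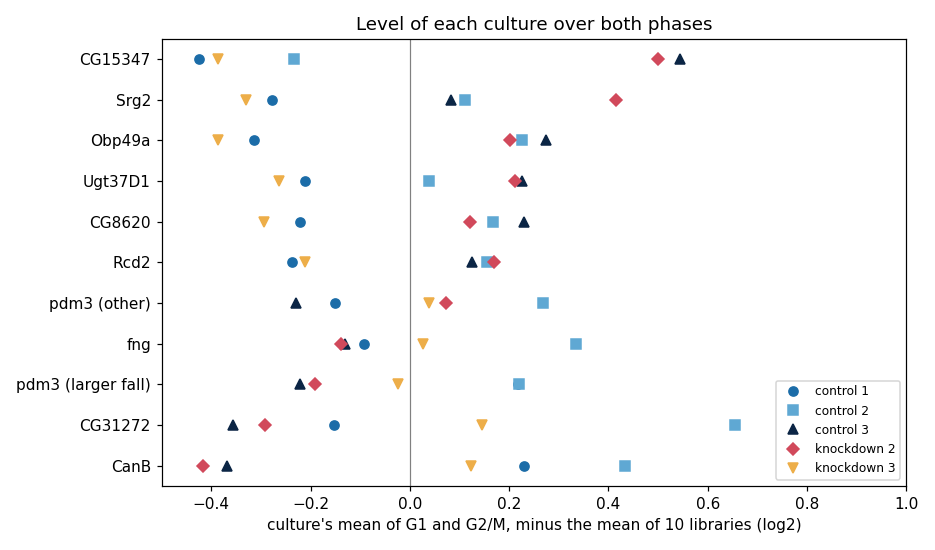
Mean of the G1 and G2/M signals of each culture, minus the mean of all 10 libraries (log2, horizontal axis), for the 11 probe sets. CG15347, at the top, is highest in control 3 and knockdown 2, and CanB, at the bottom, is lowest in them.

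Signals of the 11 probe sets in G1 sat between percentiles 48.3 and 92.5 of the arrays' probe sets and in G2/M between 29.0 and 82.3, positions that also depend on how well each probe set binds. The lowest was the pdm3 probe set with the larger fall, whose G2/M signals of 5.14 to 5.56 lay below the array medians. Those of CG31272 (5.35 to 6.12), fng (5.87 to 6.21) and the other pdm3 probe set (5.99 to 6.40) were also below them. Obp49a and CanB averaged percentiles 45.3 and 49.9 in G2/M. No detection calls were used.

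Comparing the genotype labels asked whether these genes followed the labels. In G1, as knockdown minus control, their differences ran from -0.36 ± 0.20 (SE) for the pdm3 probe set with the larger fall to 0.12 ± 0.19 for the other, with a median of -0.13, against 0.0007 over all probe sets. In G2/M they ran from -0.27 ± 0.23 for CG8620 to 0.10 ± 0.42 for CG15347, with a median of 0.002, against -0.02 over all. Limma called 0 of 11 in either phase, none of them with an unadjusted p under 0.05, beside 0% of all probe sets called in G1 and 0% in G2/M, with an unadjusted p under 0.05 for 2.57% and 0.874%. The 95% intervals reach far: for CG15347 in G1 the interval was -0.86 to 1.03, and for CanB it was -0.98 to 0.46. Each label holds a culture with high and one or more with low Slimp signal. Leaving out control 3 and knockdown 3 sets knockdown 2, with the high Slimp signal, against control 1 and 2, with the low. Label and Slimp signal cannot be told apart in that fit, and its label knockdown marks the higher Slimp signal. Without the cultures labelled control 3 and knockdown 3, limma called 0 of 11 in both phases, beside 1.93% of all probe sets in G1 and 0.698% in G2/M. An unadjusted p under 0.05 was reached by 3 of the 11 in G1, beside 16.1% of all probe sets, and by 2 in G2/M, beside 12.3%. Without control 3 and knockdown 2 it called 0 of the 11 and 0% of all probe sets in both phases, and none of the 11 had an unadjusted p under 0.05, beside 6.67% of all in G1 and 2.06% in G2/M. Both of these fits leave 1 knockdown library per phase, so their spread comes from the control libraries and the lone library is assumed to vary like them.

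**Figure D4:**
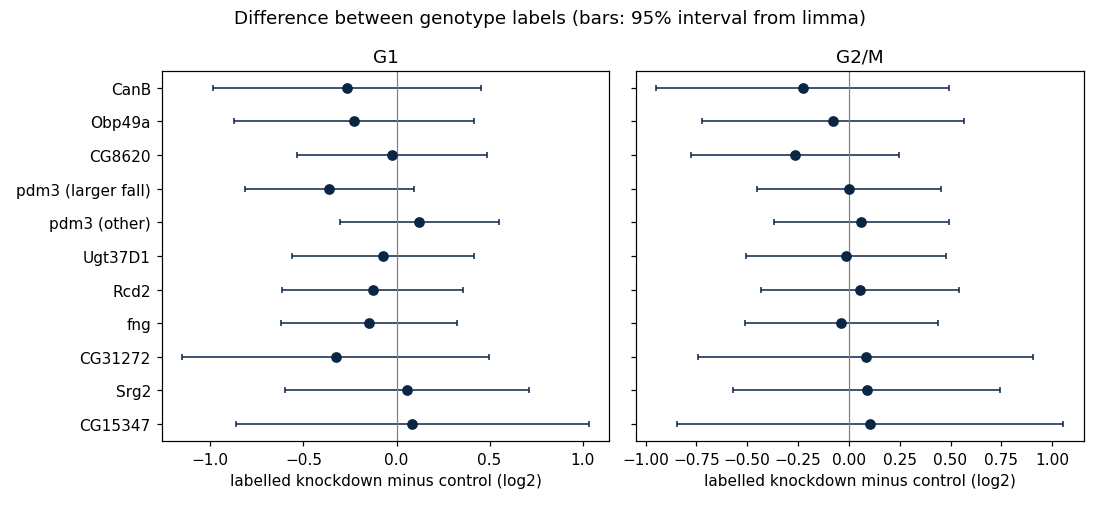
Difference between libraries labelled knockdown and control (log2, horizontal axis) in G1 and in G2/M for the 11 probe sets, with 95% intervals from limma. All 22 intervals include 0.

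The phase difference itself was set side by side between the labels. G2/M minus G1 averaged -1.61 in control and -1.58 in knockdown for CanB, -1.59 and -1.18 for CG31272, and -1.29 and -1.53 for CG8620. The interaction, which tests the difference between labels, ran from -0.24 ± 0.32 (SE) for CG8620 to 0.41 ± 0.52 for CG31272, and limma called 0 of 11, none with an unadjusted p under 0.05, beside 0% of all probe sets and 1.77% with an unadjusted p under 0.05. The fit with culture as a replicate block also called 0; CG31272 had the smallest unadjusted p, 0.0334, and an adjusted p of 1. Since the genes were chosen on a phase difference, the interaction is not free of that choice.

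Other genes were as much lower in G2/M. A further 11 named genes ranked above fng, the last of them at place 21. The deepest were the metallothionein gene MtnB (-1.58 ± 0.33, SD, n = 5 cultures), the muscle LIM protein gene Mlp60A (-1.36 ± 0.71), the chitinase gene Cht7 (-1.33 ± 0.59), Elal (-1.32 ± 0.25) and Srg1 (-1.27 ± 0.42). Just past fng, at -1.08, came CG32195, at -1.06, and CG3526, at -1.05. Mlp60A, Elal and Srg1 also differed widely by culture: Elal read 9.91 and 10.10 in G1 in control 3 and knockdown 2, and 7.25 to 7.61 in the other 3. Cht7 differed the other way, at 5.95 and 6.19 in G1 in control 3 and knockdown 2 and 7.55 to 8.18 in the other 3. MtnB is induced by copper, and it read 10.54 to 11.67 in G1 and 8.59 to 10.11 in G2/M. It was lower in G2/M in the same libraries as the 10 genes, and the part of copper induction in their falls was not tested.

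**Figure D5:**
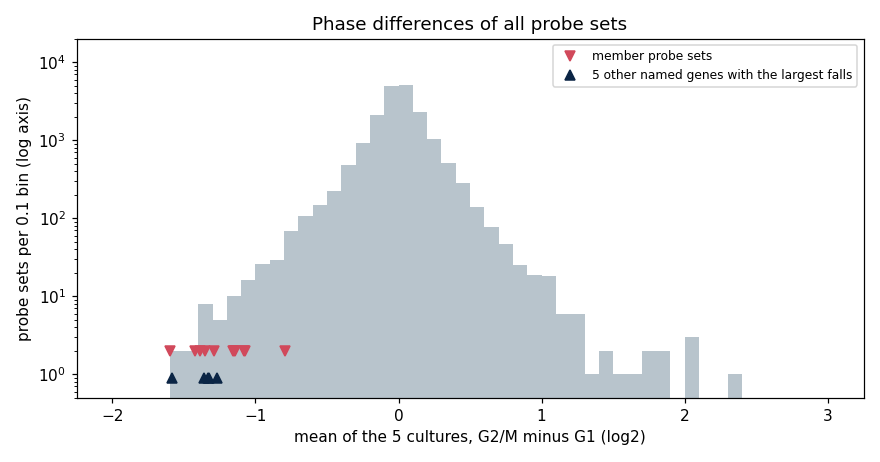
Number of probe sets (log axis) by mean G2/M minus G1 over the 5 cultures (log2), in bins of 0.1. The 11 member probe sets and the 5 other named genes with the largest falls lie in the left tail, between -1.60 and -0.79.

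Of the markers of cell types, 1 haemocyte marker of 11 fell in limma, the scavenger receptor gene Sr-CI (-0.77 ± 0.10 SE, adjusted p = 0.00723), and 0 rose. The mean signal of the 11 markers was 10.32 to 10.65 in G1 and 10.14 to 10.45 in G2/M libraries. With culture as a replicate block 3 fell and 1 rose. None of the 5 neuron, 2 muscle, 3 fat body and 2 germline markers measured passed in either direction, with or without the block; 0 had an unadjusted p under 0.05 without it and 2 with it. In G1 and G2/M the mean signal was 8.00 to 8.16 and 7.93 to 8.12 for the neuron markers, 5.25 to 5.50 and 5.26 to 5.51 for muscle, 4.40 to 4.59 and 4.55 to 4.70 for fat body, and 6.47 to 6.87 and 6.30 to 7.15 for germline. The part of haemocyte character in the falls was not tested.

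No gene next to the 10 on the chromosomes passed in the fit without a block. The fit with culture as a replicate block was not read for them. Of 20 nearest measured neighbours, 1 on each side, limma called 0 in the comparison of phases averaged over labels. An unadjusted p under 0.05 was reached by 8 of the 20, all of them lower in G2/M. That is a larger share than the 18.4% of all probe sets that reached it in either direction. Their mean differences ran from -0.63 for CG32054, beside Srg2, to 0.05 for CG13280, beside Ugt37D1, with a median of -0.19. The smallest p belonged to corn, beside CG8620, which was lower in every culture (-0.36, adjusted p = 0.0543, limma). Of the 20, 18 were below 0, a larger share than the 46.9% of all named genes. Why the neighbours leaned towards lower values was not tested. Rcd2 had CG13250 at -0.57 on one side and Nubp2 at -0.19 on the other, and CanB had XRCC1 at -0.10 and SK at -0.01. For Ugt37D1 the neighbour on the other side was another UDP-glycosyltransferase gene, Ugt37E1, at -0.30 (adjusted p = 0.367).

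The genes whose signal over the 10 libraries ran most like the mean of the 10 were Galt, tup, CG32195, Snap24 and yip2. Galt, which encodes a galactose-converting enzyme, had r = 0.993 and read 10.22 to 10.43 in G1 and 9.67 to 9.79 in G2/M. The LIM-homeodomain gene tup had r = 0.989 and a mean difference of -0.93 ± 0.20 (SD, n = 5 cultures). For CG32195, Snap24 and yip2 r was 0.985, 0.981 and 0.975. The measure r takes no account of the size of a change, so a high r does not mean a fall of like depth. Snap24, a membrane fusion gene, differed by -0.18 ± 0.02 and CG32195 by -1.06 ± 0.17. These r rest on libraries that share 2 phases and 5 cultures and carry no p.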

How the data were processed

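RNA from 10 libraries was read on Affymetrix 3' expression arrays. The log2 signals were deposited by the authors after RMA, which the submitters' processing notes name; its version was not given in the sources used here. Of 18952 probe sets, 183 array controls were left out. Symbols came from the platform annotation, updated by gene identifier to RefSeq Release 6 for 13544 of 13647 probe sets with 1 symbol. No sequences were used.

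Limma 3.58.1 in R 4.3.3 fitted 1 mean per labelled group over all 10 arrays (residual df 6, prior df 3.09), with no block and Benjamini-Hochberg adjustment over 18769 probe sets at 0.05. Deviations of the 2 libraries of a culture from their group means correlated at 0.514 to 0.685. Results with culture as a replicate block are therefore given for the members and gene lists where they change a call. Chromosomal neighbours were read without the block only. No 2 libraries of a group held the same values. Gene lists used each gene's brightest probe set; some listed genes had no probe set named here. Named genes were the 10 members with all their probe sets, Slimp, the 5 next deepest falls, the 5 most alike, and from each list up to 4 that passed or the 2 smallest p. Chromosomal neighbours, the genes just past the last member and genes that passed only with the block were named outside that rule, after their values were seen. The members and lists were chosen with earlier results of these data known. The number of arrays limits precision.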

Additional observations from a re-analysis of the deposited data

How the results depend on the processing

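The phase difference of the 11 probe sets was recomputed 185 times under 17 alternative settings, with 2 dim probe sets absent from the set above the median, and kept its direction each time, between -1.74 and -0.70. Only CG15347 moved by more than its SD between cultures, under 5 settings that each leave out 1 library, to between -1.37 and -0.92. That SD, 0.14, was the smallest of the 11. Those fits have no block, so a library left out also shifts a group mean by the level of its culture. Limma's counts over all probe sets depended more on the settings. In the phase comparison averaged over labels, 899 passed, 2938 with culture as a replicate block and 510 with replicate number as a replicate block, and 128 to 928 when 1 library was left out. Without the cultures labelled control 3 and knockdown 2 the count was 1449, and without control 3 and knockdown 3 it was 220. In control 169 passed, 1678 with the culture block and 0 with the number block, 311 among probe sets above the median signal, 481 without either of those pairs of cultures and 0 to 213 with 1 library left out. In knockdown 0 passed, 315 with the culture block, 2 with array medians subtracted, with cyclic loess or above the median signal, 3 without control 3 and knockdown 2, and 0 to 1 with 1 library left out. Between labels 363 passed in G1 and 131 in G2/M without control 3 and knockdown 3, and 0 under every other setting run. Leaving out either pair of cultures leaves 1 knockdown library per phase, assumed to vary like the control libraries. Without control 3 and knockdown 3 that library is knockdown 2, with a high Slimp signal, and control 1 and 2 have a low one. The calls between labels in that fit cannot be read as knockdown against control. The interaction gave 0 in all 17. For differences among the 5 cultures 2165 passed, 1139 to 1962 with 1 library left out, 816 without control 3 and knockdown 3 and 0 without control 3 and knockdown 2, where fewer libraries were tested; members passing numbered 3 to 7 with 1 library left out and 5 with cyclic loess. Other causes were not tested. No detection calls were used, so the dimmest signals have only relative meaning.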
